A study of Mus musculus with 12 samples.

Results

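The constitutive proteasome genes were the 43 rows, of 10655 genes in the deposited table, whose symbol begins with Psma to Psmg followed by a digit. Of 47 such rows, Psmb8, Psmb9, Psme1 and Psme2, the genes of the interferon-inducible immunoproteasome, were set aside. The 43 were 15 core genes (7 Psma and 8 Psmb), 20 regulatory genes (6 Psmc and 14 Psmd) and 8 others (3 Psme, 1 Psmf and 4 Psmg). They were measured in mouse aortic endothelial cells by SMART-seq, which copies whole transcripts from small amounts of RNA, with 12 libraries in 4 groups of 3. Each title names a pair of diets, taken here as mother then offspring because the series text lists them in that order. WD_WD libraries came from WD offspring of WD mothers, CD_WD from WD offspring of CD mothers, WD_CD from CD offspring of WD mothers and CD_CD from CD offspring of CD mothers. Per the series text, WD offspring had been put back on WD for 4 weeks. The labels give no strain, genotype, sex, age, sort or batch, so a batch that followed the offspring's diet and the diet itself cannot be told apart. They do not name separate animals either, so the p-values rest on a spread between samples that may be technical.

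The 26S proteasome degrades proteins tagged with ubiquitin. Its 20S core is a barrel of alpha and beta rings that cuts proteins inside, through the catalytic subunits Psmb5, Psmb6 and Psmb7. The 19S regulatory particle caps the barrel, where its Psmc ATPases unfold the substrate and its Psmd subunits bind ubiquitin, remove it and hold the particle together. In immune cells and under interferon, Psmb8, Psmb9 and Psmb10 can take the places of Psmb5, Psmb6 and Psmb7. In mammals the transcription factor Nfe2l1 raises proteasome genes when the proteasome is inhibited, through antioxidant-response-like sites.

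Promoter windows are shown for 5 genes that mark the range of the family: Psmb6, Psmb3 and Psma7, among the genes with the largest differences between diets, the catalytic gene Psmb5, and Psme4, the gene with the lowest fold change. The windows are RefSeq's on GRCm38.p6, each with 250 bases before and 50 bases after the gene's start, printed 5′ to 3′ on the gene's own strand. Capitals mark matches on either strand to TGACNNNGC, the letters of an antioxidant response element, or to CCAAT, the letters bound by the factor NF-Y.
Psmb6, chr11:70525107-70525406, plus strand: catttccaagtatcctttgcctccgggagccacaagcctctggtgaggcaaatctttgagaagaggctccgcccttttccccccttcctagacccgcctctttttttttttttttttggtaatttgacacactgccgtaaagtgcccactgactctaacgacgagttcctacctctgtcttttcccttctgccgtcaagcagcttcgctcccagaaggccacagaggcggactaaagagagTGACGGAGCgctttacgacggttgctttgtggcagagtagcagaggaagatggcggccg
Psmb5, chr14:54617946-54618245, minus strand: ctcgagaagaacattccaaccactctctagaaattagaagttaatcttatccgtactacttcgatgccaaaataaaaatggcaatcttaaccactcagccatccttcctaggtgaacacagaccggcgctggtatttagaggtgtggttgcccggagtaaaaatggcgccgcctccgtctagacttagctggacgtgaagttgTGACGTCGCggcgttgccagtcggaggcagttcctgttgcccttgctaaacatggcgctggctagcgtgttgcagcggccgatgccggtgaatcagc
Psmb3, chr11:97703184-97703483, plus strand: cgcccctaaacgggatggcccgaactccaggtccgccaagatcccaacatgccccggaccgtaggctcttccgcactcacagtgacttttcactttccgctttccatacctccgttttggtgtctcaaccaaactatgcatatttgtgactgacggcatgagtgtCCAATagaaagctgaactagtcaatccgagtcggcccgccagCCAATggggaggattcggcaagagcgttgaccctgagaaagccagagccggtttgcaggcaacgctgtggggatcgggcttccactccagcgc
Psma7, chr2:180042415-180042714, minus strand: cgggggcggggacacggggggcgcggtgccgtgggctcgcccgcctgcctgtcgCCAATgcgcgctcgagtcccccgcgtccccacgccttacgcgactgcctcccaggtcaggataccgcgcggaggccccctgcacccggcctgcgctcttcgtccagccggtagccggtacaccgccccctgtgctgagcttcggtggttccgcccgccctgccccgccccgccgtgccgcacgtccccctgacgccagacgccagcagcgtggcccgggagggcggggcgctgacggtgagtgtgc
Psme4, chr11:30771525-30771824, plus strand: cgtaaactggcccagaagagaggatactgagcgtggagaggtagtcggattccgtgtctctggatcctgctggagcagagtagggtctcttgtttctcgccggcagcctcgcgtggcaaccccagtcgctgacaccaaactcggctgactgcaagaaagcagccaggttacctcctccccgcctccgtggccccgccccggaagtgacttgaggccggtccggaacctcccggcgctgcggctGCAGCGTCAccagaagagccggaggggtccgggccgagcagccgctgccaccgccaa

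A window was matched by symbol for 36 of the 43 genes; Psmb1, Psmb2, Psmb7, Psmc3, Psmd3, Psmd7 and Psmg2 had no entry. TGACNNNGC was found in 6 of the 36 windows (16.7%), those of Psmb5, Psmb6, Psmc6, Psmd9, Psmd12 and Psme4, against 14.0% of 27025 genes with windows of the same length. It was in 3 of the 22 matched genes that passed the test for the offspring's diet described below and in 3 of the 14 that did not. It lies 9 bases before the start in Psmb6 and 47 bases before it in Psmb5. Those 27025 genes were not limited to the 10655 of the deposited table. CCAAT was found in 12 of the 36 windows (33.3%), against 41.1% of the 27025. It was in 11 of the 22 genes that passed and in 1 of the 14 that did not, Psmc1. GGGCGG, a GC box, was found in 20 windows (55.6%), against 38.2% of the 27025. It was in 12 of the 22 genes that passed and in 8 of the 14 that did not. A match is a string of letters and not a tested binding site.

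The deposited values were normalised counts. The libraries held 4074413 to 19670570 recovered reads, and the 43 genes took 0.439% to 0.61% of them in WD offspring and 0.536% to 0.686% in CD offspring. The 20 most abundant genes took 35.4% to 46.2% of reads in WD offspring libraries, against 12.9% to 14.4% in CD offspring libraries. All 43 genes had reads in every library, from 18 reads upwards (Psmg2). Genes of the family left out of the deposited table, by a filter or otherwise, could not be seen. Levels of different genes were compared per kilobase of the longest principal mRNA in GENCODE vM21. On that scale Psmb6 was the highest of the family, with group means of 21880 in WD_WD, 13470 in CD_WD, 3064 in WD_CD and 3282 in CD_CD, and Psme4 was the lowest, with 18.8 in WD_WD, 14.4 in CD_WD, 28.3 in WD_CD and 32.2 in CD_CD. The median level per kilobase over all libraries was 1555 for core genes, 495.2 for regulatory genes, 189.3 for the others and 86.9 for all genes with a length.

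**Figure D1:**
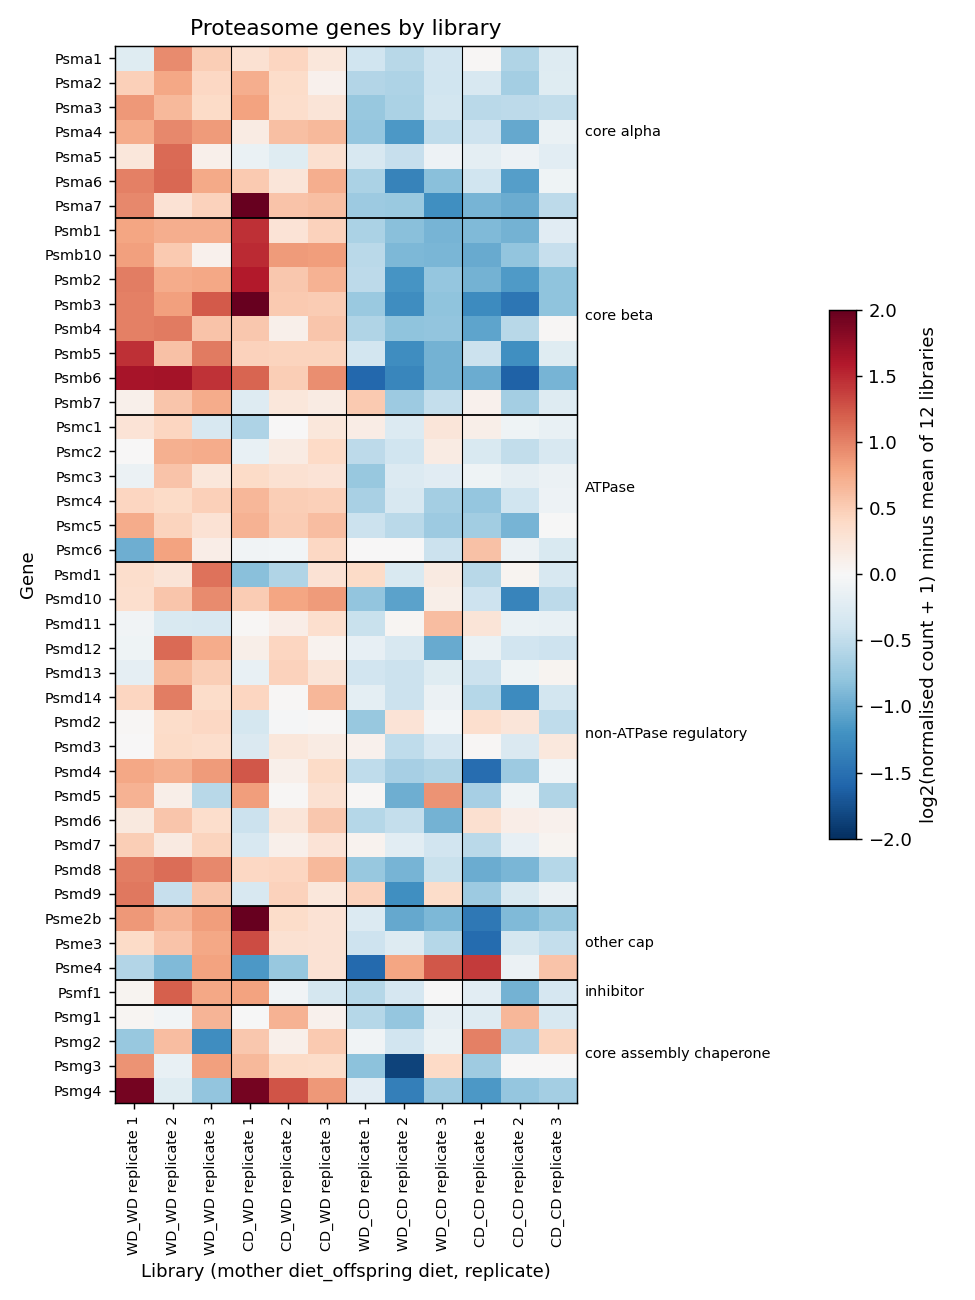
Level of each of the 43 genes in each library, as log2(normalised count + 1) minus the gene's mean over the 12 libraries (colour, from −2 to 2). Rows are genes by class and columns are libraries. Most core rows are red in the 6 WD offspring libraries and blue in the 6 CD offspring libraries, while many regulatory rows are near white. Colours rest on the deposited scaling.

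The first comparison set WD offspring against CD offspring, whatever the mother's diet. On the deposited scale, 25 of the 43 genes were higher in WD offspring than in CD offspring and 0 lower, whereas with each library scaled by its total reads 2 were higher and 18 lower. Both counts are averaged over the mothers' diets and come from limma's test (Benjamini-Hochberg adjusted p under 0.05 over all genes). Of all 10655 genes, 20.1% were called higher and 17.6% lower on the deposited scale, against 6.34% higher and 58.6% lower under total reads. The genes called were 13 of 15 core genes, 9 of 20 regulatory genes and 3 of 8 others. The median log2 fold change was 0.94 over the family, against −0.02 over all genes. It was 1.47 for core genes and 0.51 for regulatory genes. On the recovered reads edgeR called 22 members, where 35.6% of all genes were called in either direction, and DESeq2 called 26, where 42.3% were. At an unadjusted p under 0.05, limma had 28 members higher and 0 lower, where 24.7% of all genes were higher and 23.0% lower.

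The sign of these differences rests on the scaling. Under total reads, the median of all genes moved to −1.29 and that of the family to −0.47, and 32 of the 43 fold changes were negative, against 4 on the deposited scale. Relative to the median of all genes the family stood 0.96 higher on the deposited scale, 0.94 higher under TMM scaling and 0.83 higher under total reads. Fold changes below are on the deposited scale, as log2(normalised count + 1), and ± gives the SE.

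Fold changes for the offspring's diet also ran with mRNA length over the whole table. Among all genes the median log2 fold change for the offspring's diet was 1.81 for principal mRNAs of at most 1000 bases, 0.77 for over 1000 to 1500, 0.35 for over 1500 to 2000, 0.03 for over 2000 to 3000 and −0.54 above 3000. Core mRNAs had a median length of 1165 bases and regulatory mRNAs of 1710.5, against 2944 for all genes. Other genes at levels like those of the family, between its 10th and 90th percentile (8.61 to 11.44 on the log2 scale), had medians of 1.70, 0.86, 0.38, 0.20 and −0.21 in the same length classes, and 84.6%, 55.2%, 32.4%, 26.4% and 18.5% of them were called higher.

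Against those classes the members read as follows. Of 5 core genes of at most 1000 bases, 5 were called, with a median of 1.79. Between 1000 and 1500 bases, 5 of 7 core genes (median 1.27) and 4 of 5 regulatory genes (median 1.10) were called. Between 1500 and 2000 bases, 1 of 1 core gene (1.48) and 5 of 8 regulatory genes (median 0.58) were called. Between 2000 and 3000 bases, 2 of 2 core genes (median 1.02) and 0 of 5 regulatory genes (median 0.15) were called, and above 3000 bases 0 of 2 regulatory genes (median 0.33) were. The median for the short core genes was thus near that of other short genes at like levels. By these lengths, the core genes of 2000 to 3000 bases, Psma2 and Psma3, stood above theirs. Other members did too, such as Psmb1 (1758 bases, 1.48), Psmd8 (1540 bases, 1.53) and Psme3 (2664 bases, 1.20). Some lay below, such as Psma5 (1239 bases, 0.46) and Psmd11 (2848 bases, −0.07). Each length is that of the gene's longest principal mRNA, and which mRNA these cells used was not tested. The part of length in the members' differences was not tested.

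**Figure D2:**
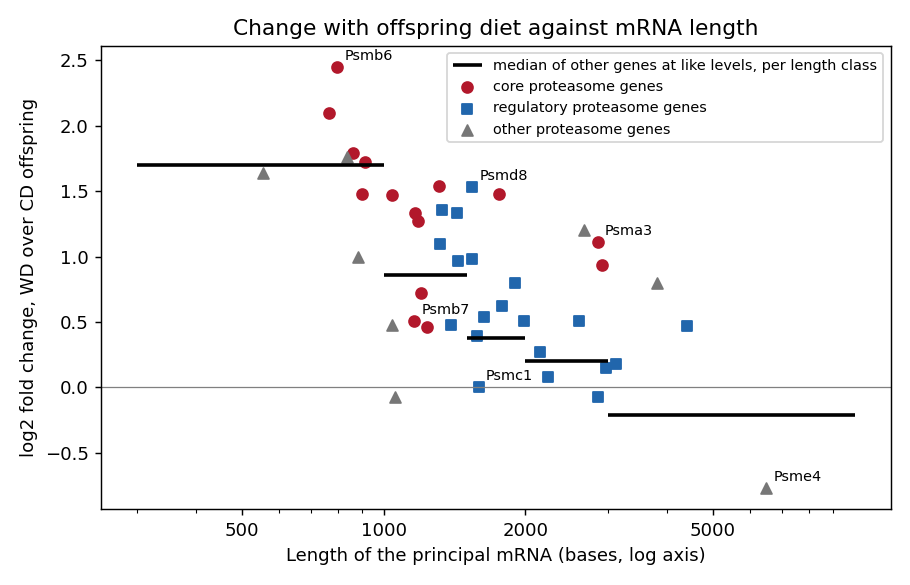
log2 fold change for the offspring's diet (WD over CD offspring, averaged over mothers) against the length of the principal mRNA in bases (log axis), for core (circles), regulatory (squares) and other (triangles) proteasome genes. Black bars are the medians of other genes at like levels in each length class, 1.70, 0.86, 0.38, 0.20 and −0.21 from short to long, and members with longer mRNAs lie lower too. Scaling by total reads moves the members by a median of −1.41.

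Library by library, the difference between the median deviation of genes of at most 1000 bases and of genes above 3000 bases was 1.46, 1.15 and 1.08 in WD_WD and 1.22, 0.73 and 0.74 in CD_WD, against −1.0, −1.51 and −1.29 in WD_CD and −1.24, −1.43 and −0.86 in CD_CD (log2 scale). The mean level of core genes minus that of regulatory genes was 1.49, 1.33 and 1.23 in WD_WD and 1.77, 1.15 and 1.10 in CD_WD, against 0.68, 0.51 and 0.46 in WD_CD and 0.69, 0.45 and 0.80 in CD_CD. Both quantities separated all 6 WD offspring libraries from all 6 CD offspring libraries. This second difference does not depend on the scaling of a library apart from the pseudocount. Core genes took 0.312% to 0.383% of reads in WD offspring, against 0.245% to 0.359% in CD offspring, while regulatory genes took 0.098% to 0.203% in WD offspring, against 0.256% to 0.296% in CD offspring.

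**Figure D3:**
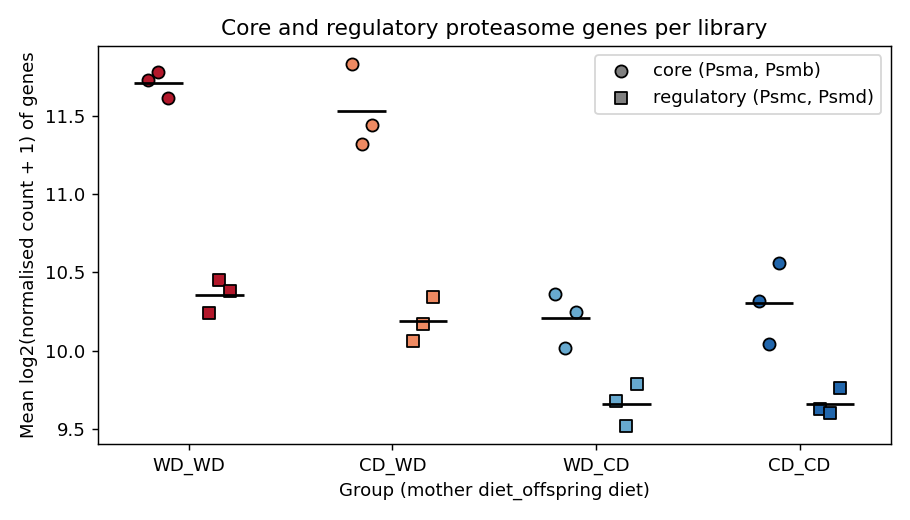
Mean log2(normalised count + 1) of the 15 core genes (circles) and the 20 regulatory genes (squares) in each library, by group, with a bar at the group mean. Core means are 11.71 in WD_WD and 11.53 in CD_WD, against 10.21 in WD_CD and 10.31 in CD_CD, and regulatory means are 10.36 in WD_WD and 10.19 in CD_WD, against 9.66 in WD_CD and 9.66 in CD_CD. The vertical order of the diets rests on the deposited scaling.

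The mix of cell markers moved with the offspring's diet as well. Of 14 endothelial markers, 13 were called lower in WD offspring; their summed normalised counts were 2246 to 36260 in WD offspring and 57710 to 95990 in CD offspring, and Robo4 was at 0 in a library. Of 12 macrophage and monocyte markers, 7 were called higher, with sums of 60200 to 1050000 in WD offspring and 11360 to 118300 in CD offspring. Neutrophil markers (4 of 5 higher, Csf3r at 0 in a library) summed to 13720 to 193000 in WD offspring and 151.4 to 1147 in CD offspring. T, NK and B cell markers (8 of 10 higher, Cd79b and Il2rb at 0 in a library) summed to 6916 to 400700 in WD offspring and 276.3 to 5176 in CD offspring, and the top value was that of CD_WD replicate 1. The 7 MHC class II genes were all called higher, at 361700 to 3738000 in WD offspring and 10310 to 83150 in CD offspring. Smooth muscle markers (8 of 9 lower, Lmod1 at 0 in a library) summed to 1187 to 23780 in WD offspring and 12210 to 84860 in CD offspring, and fibroblast markers (3 of 8 lower) to 2515 to 77740 in WD offspring and 27860 to 71980 in CD offspring. Their part in the proteasome differences was not tested, and in bulk libraries fewer cells of a type and less RNA per cell cannot be told apart.

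CD_WD replicate 1, with the lowest endothelial and highest lymphocyte sums, and WD_CD replicate 3, with 463 genes without reads, stood apart. Without both, a choice made after seeing the data, 25 members were called higher averaged over mothers, where 19.6% of all genes were; 24 were among the 25 called with all libraries, Psmd12 was lost and Psmg3 gained.

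The catalytic genes of the core barrel did not move alike. Psmb6, which encodes the caspase-like catalytic subunit, had 18196, 18348 and 15834 normalised counts in WD_WD and 12948, 8196 and 11097 in CD_WD, against 1955, 2350 and 3029 in WD_CD and 2908, 1900 and 3048 in CD_CD. Every WD offspring library stood above every CD offspring library. The difference averaged over mothers was 2.45 ± 0.23 (limma adjusted p = 2.22e-05), the largest in the family.

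Psmb5, the chymotrypsin-like subunit, had 3257, 1785 and 2427 normalised counts in WD_WD and 1640, 1613 and 1621 in CD_WD, against 924, 501 and 616 in WD_CD and 879, 507 and 1007 in CD_CD. The diets did not overlap, and the difference was 1.48 ± 0.25 (limma adjusted p = 0.000768). Psmb7, the trypsin-like subunit, had 778, 1066 and 1220 in WD_WD and 608, 852 and 811 in CD_WD, against 1048, 441 and 525 in WD_CD and 768, 454 and 605 in CD_CD. Here the diets overlapped, as WD_CD replicate 1 and CD_CD replicate 1 both stood above CD_WD replicate 1. The difference of 0.51 ± 0.27 did not pass (limma adjusted p = 0.152). Of the exonic bases of Psmb7, 11.8% are shared with Nek6, and how the counting treated strand is not given in the sources used here.

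Psmb10, the immunoproteasome subunit that can replace Psmb7 and that the family's definition kept, had 3257, 2663 and 1972 normalised counts in WD_WD and 5202, 3339 and 3313 in CD_WD, against 1276, 990.2 and 984 in WD_CD and 917, 1068 and 1342 in CD_CD. The diets did not overlap, and the difference was 1.54 ± 0.22 (limma adjusted p = 0.000236). The ratio of Psmb10 to Psmb7 counts, not corrected for length, was 4.18, 2.5 and 1.62 in WD_WD and 8.55, 3.92 and 4.09 in CD_WD, against 1.22, 2.24 and 1.88 in WD_CD and 1.19, 2.35 and 2.22 in CD_CD. The ratios overlapped between WD_WD and both CD offspring groups, and not between CD_WD and them.

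The immunoproteasome genes set aside were also higher in WD offspring. Psmb8 had a median of 7487 normalised counts in WD offspring (5808 to 31990) and 1924 in CD offspring (1224 to 2509), and the difference was 2.36 ± 0.39 (limma adjusted p = 0.000605). Psmb9, Psme1 and Psme2 gave 1.68, 1.60 and 2.21 and passed too. Under total reads Psmb8 (0.94) and Psme2 (0.79) still passed, while Psmb9 (0.26, limma adjusted p = 0.338) and Psme1 (0.18, limma adjusted p = 0.492) did not. The Psmb8 to Psmb5 ratio was 2.97, 3.28 and 3.11 in WD_WD and 19.5, 4.61 and 3.58 in CD_WD, against 2.72, 2.44 and 3.32 in WD_CD and 1.57, 3.56 and 2.06 in CD_CD, so that CD_WD replicate 1 stood far above the rest. The Psmb9 to Psmb6 ratio was lower in WD_WD, at 0.125, 0.067 and 0.0983, than in CD_WD (0.38, 0.207 and 0.156), WD_CD (0.353, 0.244 and 0.219) and CD_CD (0.242, 0.333 and 0.164), as ranges without a test.

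The structural beta genes Psmb1, Psmb2, Psmb3 and Psmb4 were called too. Psmb3 had 7549, 6595 and 8762 normalised counts in WD_WD and 17354, 5396 and 5339 in CD_WD, against 2243, 1581 and 2142 in WD_CD and 1562, 1374 and 2131 in CD_CD. All WD offspring libraries were above all CD offspring libraries, with CD_WD replicate 1 the highest, and the difference was 2.10 ± 0.30 (limma adjusted p = 0.000248). Psmb2 had 6828, 5644 and 5757 in WD_WD and 10151, 4894 and 5468 in CD_WD, against 2337, 1490 and 1975 in WD_CD and 1743, 1532 and 1919 in CD_CD. These did not overlap either, and the difference was 1.79 ± 0.23 (limma adjusted p = 0.000123). Psmb4 had 4120, 4217 and 3061 in WD_WD and 2969, 2197 and 2998 in CD_WD, against 1344, 1179 and 1181 in WD_CD and 984, 1391 and 2077 in CD_CD. The diets were apart, by the gap between 2197 in CD_WD and 2077 in CD_CD, and the difference was 1.27 ± 0.22 (limma adjusted p = 0.000995), or −0.145 under total reads.

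The alpha ring forms the gate to the barrel. Of 7 Psma genes 6 were called, and Psma5 (0.46 ± 0.23, limma adjusted p = 0.13) was not. Psma7 had 7824, 4954 and 5543 normalised counts in WD_WD and 19613, 5965 and 6093 in CD_WD, against 2432, 2416 and 1727 in WD_CD and 2109, 2031 and 2803 in CD_CD. The diets did not overlap; CD_WD replicate 1 held more than any other library, and the difference was 1.72 ± 0.31 (limma adjusted p = 0.00108). Psma3 had 3147, 2710 and 2265 in WD_WD and 3030, 2195 and 2077 in CD_WD, against 1024, 1111 and 1336 in WD_CD and 1190, 1205 and 1225 in CD_CD. The groups on WD were apart from those on CD, and the difference was 1.11 ± 0.19 (limma adjusted p = 0.000898), or −0.31 under total reads. Psma6 had 3714, 4120 and 3140 in WD_WD and 2665, 2189 and 3077 in CD_WD, against 1190, 733 and 1035 in WD_CD and 1399, 859 and 1736 in CD_CD, again without overlap (1.47 ± 0.23, limma adjusted p = 0.000466). Psma1, at 0.72 ± 0.23 (limma adjusted p = 0.0258), was −0.69 under total reads. Its call was lost by leaving out CD_CD, WD_CD, CD_WD or WD_WD replicate 2, and with edgeR (edgeR adjusted p = 0.053). Apart from total reads, it was kept in 14 of 21 alternatives, over which adjusted p-values reached 0.071.

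Of the 6 ATPases of the base, which unfold the substrate, 4 were called and 2 were not, and the 4 were negative under total reads (−0.31 to −0.87). Psmc5 had 2019, 1642 and 1477 normalised counts in WD_WD and 1955, 1718 and 1857 in CD_WD, against 899, 831 and 732 in WD_CD and 748, 633 and 1195 in CD_CD. The diets did not overlap, and the difference was 1.10 ± 0.21 (limma adjusted p = 0.00167). Psmc4 gave 0.97 ± 0.19 (limma adjusted p = 0.00197), with 1920 to 2350 in WD offspring (median 2060) and 867 to 1374 in CD offspring (median 1032).

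Psmc2 and Psmc3 passed narrowly and overlapped between the diets. Psmc2 gave 0.62 ± 0.22 (limma adjusted p = 0.0422) and Psmc3 0.54 ± 0.20 (limma adjusted p = 0.046). Of the 12 fits that each left out 1 library, Psmc2 passed in 3, those without WD_CD replicate 3, CD_WD replicate 1 or WD_WD replicate 1, and Psmc3 in 2, those without CD_WD replicate 1 or WD_WD replicate 1. Psmc1 had 1726, 1929 and 1140 in WD_WD and 928, 1437 and 1672 in CD_WD, against 1592, 1183 and 1686 in WD_CD and 1551, 1353 and 1292 in CD_CD. These ranges overlapped, with a difference of 0.00 ± 0.23 (limma adjusted p = 0.99). Psmc6 was at 0.08 ± 0.31 (limma adjusted p = 0.854), with 272.3 to 938.7 in WD offspring (median 551.4) and 397.9 to 805.5 in CD offspring (median 517.1).

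Of 14 Psmd genes 5 were called: Psmd4, Psmd8, Psmd10, Psmd12 and Psmd14. Psmd8, a subunit of the lid, had 4711, 4997 and 4506 normalised counts in WD_WD and 3091, 3109 and 3620 in CD_WD, against 1364, 1214 and 1705 in WD_CD and 1160, 1229 and 1550 in CD_CD. The diets were far apart beside the spread within groups, and the difference was 1.53 ± 0.19 (limma adjusted p = 8.28e-05). Psmd4, a ubiquitin receptor, had 3473, 3315 and 3643 in WD_WD and 4812, 2172 and 2644 in CD_WD, against 1421, 1271 and 1326 in WD_CD and 703, 1226 and 1957 in CD_CD. There was no overlap, and the difference was 1.36 ± 0.27 (limma adjusted p = 0.00234), or −0.05 under total reads.

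Psmd14, the deubiquitinase that removes the ubiquitin chain, had 845, 1284 and 816 in WD_WD and 847, 636 and 995 in CD_WD, against 550.2, 466 and 581 in WD_CD and 425, 262 and 485 in CD_CD. It did not overlap between the diets either (0.98 ± 0.24, limma adjusted p = 0.00768), and was −0.43 under total reads. Psmd12, a lid subunit, gave 0.80 ± 0.25 (limma adjusted p = 0.025) and −0.60 under total reads. Its call was lost without CD_CD replicate 2 or 3, WD_CD replicate 3, CD_WD replicate 2 or WD_WD replicate 2. It was also lost without CD_WD replicate 1 and WD_CD replicate 3 together. Over these fits limma adjusted p-values reached 0.0617.

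The large scaffolds and the lid subunit Psmd11 did not pass. Psmd1 and Psmd2, the scaffolds of the base, gave 0.18 ± 0.27 (limma adjusted p = 0.614) and 0.15 ± 0.24 (limma adjusted p = 0.646), and Psmd11 gave −0.07 ± 0.22 (limma adjusted p = 0.825). Psmd2 had 1325, 1682 and 1746 normalised counts in WD_WD and 1027, 1281 and 1321 in CD_WD, against 768, 1577 and 1255 in WD_CD and 1650, 1544 and 920.2 in CD_CD, so that the diets overlapped. Psmd3, Psmd6, Psmd7 and Psmd13 lay between 0.27 and 0.51 and did not pass. Among the chaperones that assemble the base, Psmd10 passed (1.33 ± 0.29, limma adjusted p = 0.00351, −0.08 under total reads), with 490.6 to 752.3 in WD offspring (median 620.6) and 155.3 to 423.3 in CD offspring (median 246.9). Psmd5 (0.47 ± 0.35, limma adjusted p = 0.309) and Psmd9 (0.51 ± 0.36, limma adjusted p = 0.291) did not. Of the exonic bases of Psmd9, 25.5% are shared with Gm26745, and of those of Psmd13, 10.1% with Sirt3.

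Other caps and helpers of the core differed among themselves. Psme3, the nuclear PA28-gamma cap, had 622, 714 and 816 normalised counts in WD_WD and 1179, 592 and 585 in CD_WD, against 359, 398 and 322 in WD_CD and 164, 374 and 344 in CD_CD. The diets did not overlap, and the difference was 1.20 ± 0.29 (limma adjusted p = 0.00583), or −0.20 under total reads. Psme4, the PA200 cap, had 82.2, 66.7 and 218 in WD_WD and 55.8, 73.2 and 152 in CD_WD, against 41.6, 215 and 296 in WD_CD and 328, 114 and 185 in CD_CD. The lowest library was in WD_CD, the diets overlapped, and the difference of −0.77 ± 0.57 did not pass (limma adjusted p = 0.309). Psme2b gave 1.76 ± 0.33 (limma adjusted p = 0.00152), but it is a near-identical copy of Psme2 and its reads cannot be assigned with certainty.

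Psmf1, which encodes the inhibitor PI31, missed the threshold at 0.80 ± 0.30 (limma adjusted p = 0.052), with 328.8 to 959.9 in WD offspring (median 578.0) and 217.8 to 420.0 in CD offspring (median 333.1). Of the 4 chaperones that build the alpha ring, Psmg4 passed. It had 1505, 338 and 229.6 normalised counts in WD_WD and 1501, 949.9 and 728 in CD_WD, against 341, 154 and 242 in WD_CD and 179, 232.9 and 248.7 in CD_CD. Only WD_WD replicates 2 and 3 of the WD offspring fell within the range of the CD offspring, and the difference was 1.64 ± 0.43 (limma adjusted p = 0.0101). Psmg1 (0.48 ± 0.34, limma adjusted p = 0.288), Psmg2 (−0.07 ± 0.41, limma adjusted p = 0.908) and Psmg3 (1.00 ± 0.42, limma adjusted p = 0.0774) did not pass.

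The effect of the offspring's diet was then taken under each mother's diet. Among offspring of WD mothers (WD_WD against WD_CD), 20 members were called higher and 0 lower by limma, where 14.2% of all genes were called higher and 10.2% lower; edgeR called 13 and DESeq2 21, where they called 19.8% and 29.0% of all genes in either direction. At an unadjusted p under 0.05 limma had 28 higher and 0 lower, where 20.6% of all genes were higher and 18.2% lower. The 20 were 12 core genes, 7 regulatory genes and Psme2b, and the median log2 fold change of the family was 0.99, or −0.385 under total reads. The largest were Psmb6 (2.86 ± 0.32, limma adjusted p = 0.000355), Psmb3 (1.95 ± 0.43, adjusted p = 0.00731), Psma6 (1.91 ± 0.33, adjusted p = 0.00197), Psmb5 (1.87 ± 0.36, adjusted p = 0.00343), Psmd8 (1.74 ± 0.26, adjusted p = 0.00111) and Psmb2 (1.67 ± 0.33, adjusted p = 0.00413). The count was 12 without WD_CD replicate 2 and 13 without WD_WD replicate 2 or 3.

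Among offspring of CD mothers (CD_WD against CD_CD), 17 members were called higher and 0 lower by limma, where 9.46% of all genes were called higher and 5.55% lower; edgeR called 11 and DESeq2 20, where they called 13.6% and 22.0% of all genes in either direction. At an unadjusted p under 0.05 limma had 21 higher and 0 lower, where 16.6% of all genes were higher and 13.6% lower. The 17 were 8 core genes, 6 regulatory genes, Psme2b, Psme3 and Psmg4, and the median was 0.80, or −0.64 under total reads. The largest were Psmb3 (2.26 ± 0.43, limma adjusted p = 0.00486), Psmg4 (2.21 ± 0.61, adjusted p = 0.0286), Psmb6 (2.04 ± 0.32, adjusted p = 0.00228), Psme2b (1.98 ± 0.47, adjusted p = 0.0149), Psma7 (1.96 ± 0.43, adjusted p = 0.0107) and Psmb2 (1.91 ± 0.33, adjusted p = 0.00314). The count was 6 without CD_CD replicate 1, 7 without CD_CD replicate 2 and 11 without CD_WD replicate 2.

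The 14 genes called under both mothers' diets were 82.4% of the 17 and 70.0% of the 20. The like shares over all genes were not computed, so these are not shown to be particular to the family. The comparisons use different libraries. The 14 were Psma3, Psma4, Psma7, Psmb1, Psmb2, Psmb3, Psmb6, Psmb10, Psmc4, Psmc5, Psmd4, Psmd8, Psmd10 and Psme2b. Of these, 5 (Psmb2, Psmb3, Psmb6, Psmb10 and Psmd8) kept both calls under every alternative but total reads. Of the 12 fits that each left out 1 library, Psma4 passed in 1 under CD mothers. Psmd10 passed in 2 of them under WD mothers. Psma1, Psmc2 and Psmc3 were called only in the average over mothers and under neither diet of the mother alone.

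**Figure D4:**
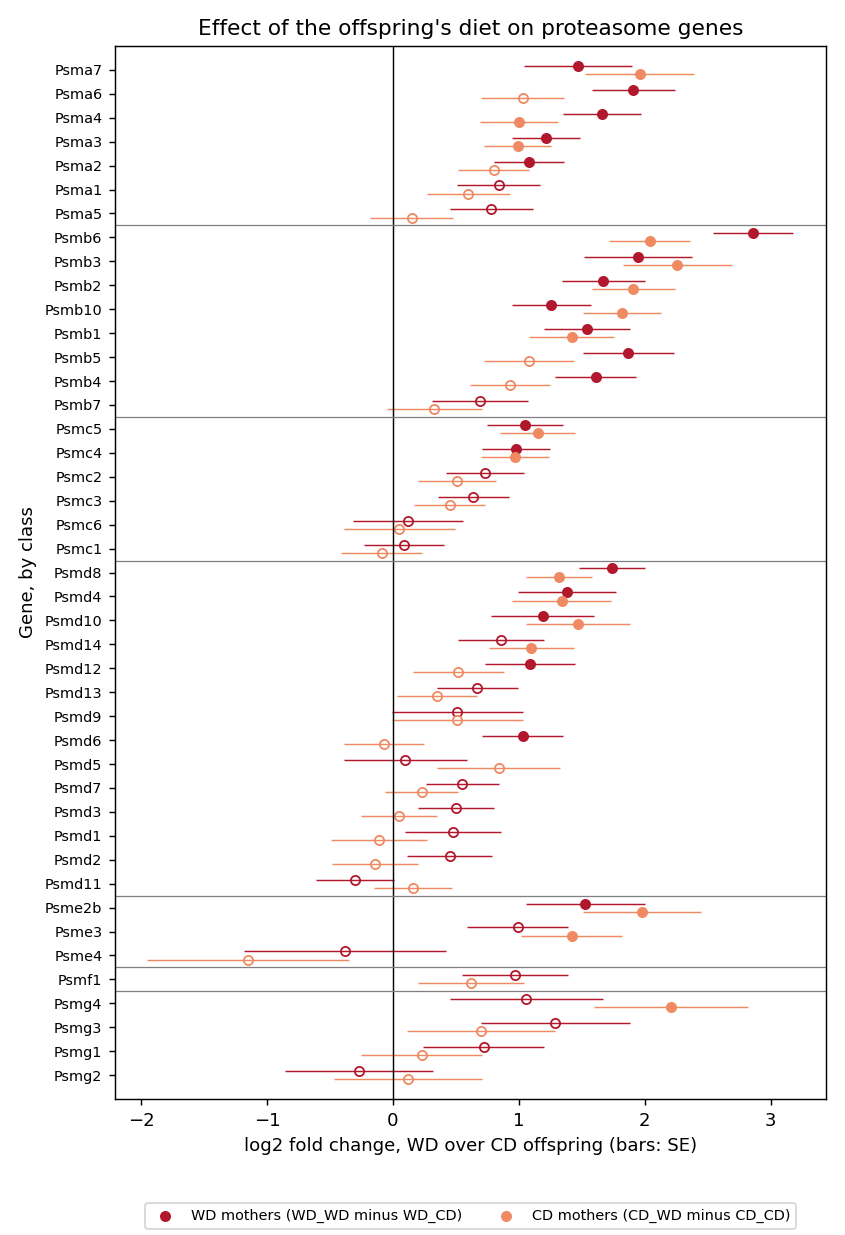
log2 fold change for the offspring's diet (WD over CD offspring) of each gene, with bars of 1 SE, under WD mothers (dark) and CD mothers (light). Filled points passed limma's adjusted threshold and open points did not; Psmb6 is the largest under WD mothers (2.86) and Psmb3 under CD mothers (2.26), and points near 0 are mostly regulatory genes. The zero line is that of the deposited scaling, and total-read scaling moves the members by a median of −1.38 under WD mothers and −1.44 under CD mothers.

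The mother's diet, the subject of the series title, was compared within each diet of the offspring. In WD offspring (WD_WD against CD_WD), 0 members were called higher and 0 lower by limma, edgeR or DESeq2, and 0.0% of all genes were by limma or edgeR and 0.131% by DESeq2. At an unadjusted p under 0.05, 2 members were higher and 0 lower by limma, where 2.33% of all genes were higher and 3.57% lower. The 3 members with the smallest p did not pass. Psmd1 had 1284, 1206 and 2126 normalised counts in WD_WD, against 563, 663 and 1235 in CD_WD, which overlapped (0.94 ± 0.38, limma adjusted p = 0.836). Psmb6 had 18196, 18348 and 15834 in WD_WD, against 12948, 8196 and 11097 in CD_WD, which did not overlap (0.72 ± 0.32, limma adjusted p = 0.836). Psmd8 had 4711, 4997 and 4506 in WD_WD, against 3091, 3109 and 3620 in CD_WD, also without overlap (0.54 ± 0.26, limma adjusted p = 0.852). The family's median was 0.16, against −0.03 for all genes, and 27 of the 43 fold changes were positive.

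In CD offspring (WD_CD against CD_CD), again 0 members were called in each direction by limma, edgeR or DESeq2, with 0.0% of all genes by limma or edgeR and 0.0845% by DESeq2. At an unadjusted p under 0.05, 0 members were higher and 1 lower by limma, where 0.77% of all genes were higher and 1.82% lower. That gene was Psmd6, a lid subunit, with 485, 518 and 374 normalised counts in WD_CD, against 904, 795 and 765 in CD_CD. The groups did not overlap, and the difference of −0.85 ± 0.32 had a limma adjusted p of 1.0. The next were Psmd14 (0.49 ± 0.34) and Psma6 (−0.40 ± 0.33), each with a limma adjusted p of 1.0. The family's median was −0.08, against −0.05 for all genes, and 18 of 43 fold changes were positive. The authors' deposited table lists 0 of the 43 genes at an adjusted p under 0.05 in either comparison of mothers. Of all 10655 genes it lists only 36 in WD offspring and 13 in CD offspring, so 0 members is not particular to the family. Its lowest values for members are 0.415 for Psmd1 (log2 fold change 0.90) in WD offspring and 0.826 for Psmd6 (−0.84) in CD offspring.

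The difference between the mother's effect in WD offspring and in CD offspring was tested as an interaction. By limma, edgeR or DESeq2, 0 of the 43 genes passed, and 0.0% of all genes did by limma or edgeR and 0.0939% by DESeq2. At an unadjusted p under 0.05, 1 member was higher and 0 lower by limma, where 1.75% of all genes were higher and 1.46% lower. The smallest p-values were those of Psmd6 (1.10 ± 0.45), Psma6 (0.88 ± 0.46) and Psmb6 (0.81 ± 0.46), each with a limma adjusted p of 0.997.

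**Figure D5:**
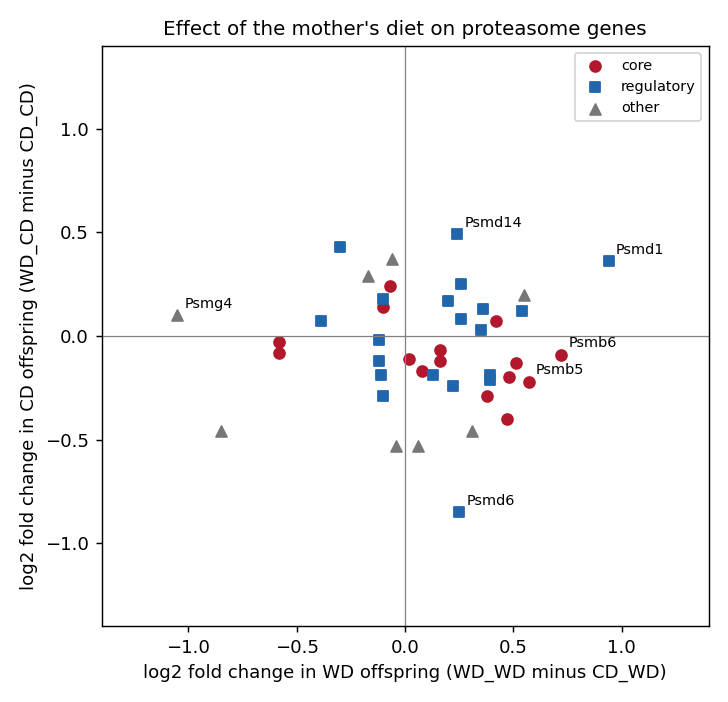
log2 fold change for the mother's diet in WD offspring (WD_WD minus CD_WD, horizontal axis) and in CD offspring (WD_CD minus CD_CD, vertical axis) for core, regulatory and other genes. Points scatter around 0 on both axes, between −1.05 and 0.94 across and between −0.85 and 0.49 up, and none passed limma's adjusted threshold.

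Genes around the proteasome outside the family were counted from fixed lists for the offspring's diet, averaged over mothers. Beside every list count below, 20.1% of all genes were called higher and 17.6% lower by limma. The lists are short, and their counts were not tested against those shares. Of 9 other genes that act at the 26S proteasome, 1 was called higher and 3 lower (median −0.34). Shfm1, a small lid subunit, had a median of 6311 normalised counts in WD offspring (4798 to 9111) and 1794 in CD offspring (1388 to 2260), a difference of 1.86 ± 0.24 (limma adjusted p = 0.000112). The ubiquitin ligases Ube3c (−1.81 ± 0.44, limma adjusted p = 0.00643), Ube3a (−1.20 ± 0.38, adjusted p = 0.0254) and Huwe1 (−0.72 ± 0.25, adjusted p = 0.0361) were lower. Their principal mRNAs have 5048, 9856 and 14579 bases, in the length class whose median over all genes was −0.54. The call of Ube3a was lost without CD_CD replicate 1 or 3, WD_CD replicate 3, CD_WD replicate 2 or WD_WD replicate 1 or 2, with adjusted p-values up to 0.0638. That of Huwe1 was kept only without WD_CD replicate 1, CD_WD replicate 1 or WD_WD replicate 2. The ubiquitin receptor Adrm1 (0.28 ± 0.28, limma adjusted p = 0.455, −1.12 under total reads) and the deubiquitinase Usp14 (−0.45 ± 0.31, adjusted p = 0.27) did not pass.

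Of 7 assembly factors outside the family, 4 were called higher and 0 lower (median 1.05). Pomp, which chaperones the beta ring, had a median of 5826 normalised counts in WD offspring (4742 to 7608) and 1361 in CD offspring (1074 to 1855), without overlap, and the difference was 2.11 ± 0.23 (limma adjusted p = 4.61e-05). The chaperone Hsp90aa1 gave 2.26 ± 0.43 (limma adjusted p = 0.00163), with CD_WD replicate 1 at 88999 and no other library above 17516. The proteasome-binding zinc finger genes Zfand5 and Zfand2b gave 1.36 ± 0.27 and 1.05 ± 0.32 (limma adjusted p = 0.00211 and 0.0206), and were −0.05 and −0.35 under total reads. The call of Zfand2b was lost without CD_CD replicate 1 or 2, with adjusted p-values up to 0.0549. The principal mRNAs of Pomp and Zfand2b have 1579 and 1316 bases. Those of Hsp90aa1 and Zfand5 have 3281 and 7385, in the length class with a median of −0.54 over all genes. Of 14 genes for ubiquitin shuttles and the p97 system, limma and edgeR called 0 and DESeq2 1, Ubqln4, which was also the 1 gene at an unadjusted p under 0.05 by limma (median of the list 0.11). The smallest limma adjusted p-values were 0.102 for Ubqln4 (−1.0), 0.107 for Ubqln2 (−0.86), 0.122 for Ubxn1 (0.62) and 0.154 for Nsfl1c (0.45), and the last 2 were −0.78 and −0.95 under total reads.

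Of 11 genes for the transcriptional control of proteasome genes, 0 were called higher and 3 lower (median −0.35). Nfe2l1 had 437, 978 and 562 normalised counts in WD_WD and 505, 584 and 913 in CD_WD, against 1670, 1925 and 2320 in WD_CD and 2006, 1826 and 1601 in CD_CD. Every WD offspring library was below every CD offspring library, and the difference was −1.57 ± 0.25 (limma adjusted p = 0.000504). Its principal mRNA has 4654 bases, in the length class whose median over all genes was −0.54. Sel1l (−1.33 ± 0.24, limma adjusted p = 0.00109) and Ngly1, which removes sugar chains from Nfe2l1 protein (−1.10 ± 0.38, adjusted p = 0.038), were lower too. Their principal mRNAs have 6300 and 2935 bases, in length classes with medians of −0.54 and 0.03 over all genes. The call of Ngly1 was kept only without CD_CD replicate 3, WD_CD replicate 1, CD_WD replicate 1 or WD_WD replicate 2. Keap1 (−0.82 ± 0.32, limma adjusted p = 0.0614) and Nfe2l2 (0.62 ± 0.29, adjusted p = 0.106, −0.78 under total reads) did not pass.

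Of 15 genes for ubiquitin and its activation, 8 were called higher and 1 lower (median 0.98). Ubb, a polyubiquitin gene, had a median of 33930 normalised counts in WD offspring (27880 to 86260) and 4894 in CD offspring (4003 to 6621), a difference of 2.98 ± 0.29 (limma adjusted p = 2.67e-05). Rps27a, which encodes ubiquitin fused to a ribosomal protein, gave 2.67 ± 0.38 (limma adjusted p = 0.000239), also without overlap between the diets. The gene called lower, named after its value was seen, was Uba1, which encodes the main ubiquitin-activating enzyme (−0.92 ± 0.25, limma adjusted p = 0.0117). The principal mRNAs of Ubb, Rps27a and Uba1 have 1499, 791 and 4071 bases. Their length classes had medians of 0.77, 1.81 and −0.54 over all genes. The part of length in these differences was not tested.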

How the data were processed

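RNA from mouse aortic endothelial cells was measured by SMART-seq in 12 libraries, 4 groups of 3. The authors deposited 1 table of 10655 genes of normalised counts, a signal in which each library's gene counts had been divided by its size factor. Per the submitters' processing notes, the tools were featureCounts 2.0.1 and DESeq2, HISAT2 2.2.1 with GRCm38 (mm10), SAMtools 1.13, Trim Galore 0.6.10 and FastQC 0.12.1, listed without roles. For strand, multi-mapping and gene filters, the settings were not given in the sources. Beside the normalised counts, the authors' deposited table holds log2 fold changes and p-values for both comparisons of mothers.

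The values were tested as log2(normalised count + 1) with limma 3.58.1 (R 4.3.3; trended variance, 4 groups in 1 fit, 8 residual degrees of freedom), with Benjamini-Hochberg adjustment over all 10655 genes and a threshold of 0.05. The offspring's diet was compared under each mother's diet and averaged, the mother's diet under each offspring diet, and the interaction was tested, 6 contrasts in all. All values (100% of 127860) were whole multiples of 1 read within 0.01, and the reads so recovered were tested with edgeR 4.0.16 and DESeq2 1.42.0 as alternatives. Depth was 4074413 to 19670570 reads a library. The procedure was also run on simulated data. A small share of genes was changed there and no length gradient was set, so that run cannot speak to the scaling or to length.

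The members and gene lists were chosen with earlier results of these data known. Genes named were the catalytic, scaffold, receptor, cap and chaperone genes of a fixed list, the 6 largest in each direction where more than 12 members passed, the 3 smallest p-values where none did, and up to 4 of each list, of which some are not reported here. Psma1, Psma2, Psma4, Psma5, Psmb1, Psmd3, Psmd6 outside the mother's comparisons, Psmd7, Psmd13 and Uba1 were named after their values were seen. Promoter windows came from RefSeq (GRCm38.p6), and mRNA lengths and exon overlaps from GENCODE vM21 (GRCm38).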

Additional observations from a re-analysis of the deposited data

How the results depend on the processing

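Counts of called members depended most on the scaling and on single libraries. Under CD mothers, 17 members were called higher; the count was 11 with edgeR, 0 with total reads, 9 without the variance trend, 7 with these groups fitted alone, 11 without CD_WD replicate 1 and WD_CD replicate 3 (left out together after seeing the data), and 6 to 16 with 1 library left out. Under WD mothers, 20 were called higher; the count was 13 with edgeR, 1 with total reads, 13 without the trend and 12 to 21 with 1 library left out. Averaged over mothers, 25 were called higher, 2 with total reads and 21 to 27 with 1 library left out. Total reads gave 11, 4 and 18 members called lower under CD mothers, under WD mothers and in the average, where 43.2%, 42.6% and 58.6% of all genes were called lower. Apart from total reads, 5 of the 17, 11 of the 20 and 21 of the 25 calls were kept under every alternative run. For the fits without the trend, of the CD mothers' groups alone or with 1 library left out, shares of all genes are not given here. Whether members lost more calls than other genes in those fits was not tested.

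The family's median was 0.80 under CD mothers, −0.64 with total reads, 0.65 without the 2 libraries and 0.65 to 0.86 with 1 library left out. Under WD mothers it was 0.99, −0.385 with total reads, 0.85 under TMM and 0.92 to 1.09 with 1 left out. In the average it was 0.94, 0.77 with edgeR and −0.47 with total reads. The core median minus the regulatory median was 0.56 under CD mothers (0.48 to 0.80 with 1 library left out) and 0.89 under WD mothers (0.66 to 0.96). For the mother's diet in WD offspring it was −0.07 (−0.24 to 0.30 with 1 library left out, 0.30 without the 2 libraries), so its sign rested on CD_WD replicate 1. In the interaction it was 0.10 (−0.10 to 0.33, and 0.38 without the 2 libraries), and the family's median there was 0.23 (0.14 to 0.36).

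Scaling by total reads turned 30 members negative under CD mothers, 29 under WD mothers and 28 in the average, of which 9, 9 and 14 had been called higher; the values of those called follow, with genes outside the family named in the text. Under CD mothers these were Psme3 −0.023, Psmc5 −0.29, Psma3 −0.45, Psmb1 −0.026, Psmd14 −0.33, Psmd4 −0.10, Psmc4 −0.47, Psmd8 −0.12 and Psma4 −0.44. Under WD mothers they were Psmc5 −0.33, Psmd12 −0.29, Psma3 −0.16, Psma2 −0.30, Psmd6 −0.35, Psmd4 −0.009, Psmc4 −0.405, Psmb10 −0.12 and Psmd10 −0.18. In the average they were Psme3 −0.20, Psmc5 −0.31, Psmd12 −0.60, Psma3 −0.31, Psma2 −0.47, Psmd14 −0.43, Psmc3 −0.87, Psmb4 −0.145, Psmd4 −0.054, Psmc2 −0.79, Psmc4 −0.44, Psma1 −0.69, Psma4 −0.082, Psmd10 −0.078, Adrm1 −1.12, Nfe2l2 −0.78, Nsfl1c −0.95, Ubxn1 −0.78, Zfand2b −0.35 and Zfand5 −0.052. Psme4 under WD mothers (−0.38) was 0.16 without WD_CD replicate 3, alone or with CD_WD replicate 1, and −1.24 to 0.16 with 1 library left out. Apart from the sizes set by the scaling itself, the cause was not tested.

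With the replicate number as a block, 24 members were called higher in the average, 13 under CD mothers and 18 under WD mothers. For the mother's diet or the interaction, 0 were called higher. Shares of all genes called in that fit are not given here. Psmc3 lost its call in the average (limma adjusted p = 0.0598). Same-numbered libraries did not deviate together (r from −0.232 to 0.074, 0 of 18 pairs over 0.1), so the numbers were not taken to pair the samples. Depth limits the lowest genes, such as Psmg2 with 18 reads in its lowest library.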
